A study of Mus musculus with 37 samples.

Results

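The circadian clock genes examined here are Arntl, Clock, Npas2, Per1, Per2, Per3, Cry1, Nr1d1, Nr1d2 and Dbp. They were taken by name as the rows of the deposited ipsilateral and contralateral tables whose Ensembl identifier maps to these symbols, and all 10 were found among the 21975 genes of each table. The values are TPM, a share of all transcripts that takes gene length into account, from bulk RNA-Seq of cortical astrocytes, collected 4 months after controlled cortical impact (CCI), a mechanical injury to 1 side of the cortex, or after sham surgery. Astrocytes were captured with magnetic beads against the surface antigen ACSA-2, separately from the cortex on the injured side (ipsilateral) and from the opposite cortex (contralateral). Injured mice with post-traumatic epilepsy on EEG were called PTE+ and injured mice without it PTE−. The ipsilateral table holds 5 sham, 10 PTE− and 4 PTE+ libraries, and the contralateral one 5 sham, 9 PTE− and 4 PTE+ libraries. Both hemispheres were present for 17 mice (5 sham, 9 PTE− and 3 PTE+), and 20 mice had at least 1 library.

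All mice were wild-type males, and the methods name the strain CD1 while the labels give WT CD31. Sham mice also had a craniectomy and implanted electrodes, so all groups share the opened skull and the EEG recording, and the sham mice lacked the impact. The PTE+ and PTE− groups were defined by what the EEG recorded and not by a treatment. Housing was under a 12 h light and 12 h dark cycle, but the hour at which each mouse was killed is not given in the sources used here. Levels of clock genes can therefore be compared between mice and hemispheres, but not placed at a time of day.

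The mammalian clock is a feedback loop of transcription found in nearly every cell, astrocytes included. ARNTL (also called BMAL1) pairs with CLOCK or its relative NPAS2 and activates genes that carry E-box sequences, among them the Per, Cry and Nr1d genes and Dbp. PER and CRY proteins then repress the pair, while NR1D1 and NR1D2 (REV-ERBα and β) repress Arntl through ROR elements, and DBP activates genes with D-boxes. Over a day Arntl and Npas2 therefore tend to be high when Dbp, Nr1d1 and the Per genes are low.

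The promoters of 9 of the 10 genes were available from RefSeq on GRCm38.p6, as 13 windows from 250 bases before to 50 bases after a transcription start, with more than 1 start for some genes. They were searched on both strands for 4 motifs of the loop. These were the E-box (CACGTG), the D-box (TTATGTAA or TTACGTAA), the ROR element (TAGGTCA or TGGGTCA) and the cyclic AMP response element, or CRE (TGACGTCA). An E-box lay in windows of 2 of the 9 genes, a D-box in 1, a ROR element in 1 and a CRE in 0. Of 32851 promoters of the same length, 7.15% held an E-box, 1.06% a D-box, 6.45% a ROR element and 1.79% a CRE. The 4 windows with a motif are shown because they place these elements in a Per gene, in the repressor Cry1 and in Arntl, whose levels are compared below. The motifs are in capitals and each sequence runs 5′ to 3′ on the strand of its gene. The windows are chr11:69098699-69098998 (plus strand, Per1, E-box), chr4:151044616-151044915 (minus strand, Per3, 2 D-boxes), chr10:85185005-85185304 (minus strand, Cry1, E-box) and chr7:113207261-113207560 (plus strand, Arntl, ROR element).
Per1: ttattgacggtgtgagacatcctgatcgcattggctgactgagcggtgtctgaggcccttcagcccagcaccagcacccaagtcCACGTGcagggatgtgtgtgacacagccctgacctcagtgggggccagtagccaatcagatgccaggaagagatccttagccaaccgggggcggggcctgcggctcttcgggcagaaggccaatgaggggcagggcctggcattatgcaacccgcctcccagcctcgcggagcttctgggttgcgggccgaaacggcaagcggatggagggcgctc
Per3: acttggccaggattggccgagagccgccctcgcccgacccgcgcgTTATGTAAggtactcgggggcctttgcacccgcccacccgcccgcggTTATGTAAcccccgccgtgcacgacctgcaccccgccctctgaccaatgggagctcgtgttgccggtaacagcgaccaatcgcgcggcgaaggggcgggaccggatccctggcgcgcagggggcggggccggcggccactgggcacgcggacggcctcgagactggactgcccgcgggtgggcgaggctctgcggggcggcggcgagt
Cry1: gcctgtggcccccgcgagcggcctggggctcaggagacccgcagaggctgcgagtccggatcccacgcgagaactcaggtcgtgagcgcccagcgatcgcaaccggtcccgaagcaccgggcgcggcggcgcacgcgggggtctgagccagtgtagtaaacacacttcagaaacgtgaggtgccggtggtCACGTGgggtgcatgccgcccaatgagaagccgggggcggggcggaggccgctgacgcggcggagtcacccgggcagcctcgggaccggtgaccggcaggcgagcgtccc
Arntl: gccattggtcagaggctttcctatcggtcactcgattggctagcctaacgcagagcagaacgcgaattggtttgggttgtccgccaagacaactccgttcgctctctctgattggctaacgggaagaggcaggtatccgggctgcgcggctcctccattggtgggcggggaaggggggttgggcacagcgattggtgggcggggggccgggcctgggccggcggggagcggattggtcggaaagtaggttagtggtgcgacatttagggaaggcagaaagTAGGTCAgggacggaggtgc
A match of letters is a description and no measured binding site. On the same build (mm10, GRCm38, GENCODE vM21) the genes themselves span chr7:113207465-113314126 (Arntl, plus strand), chr7:45705088-45710203 (Dbp, plus strand), chr11:98767932-98775333 (Nr1d1, minus strand) and chr1:91415982-91459324 (Per2, minus strand).

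The libraries carried the transcripts of astrocytes. The summed TPM of 8 astrocyte markers lay between 13800 and 20200 in every library, against 25.2 to 406 for 5 neuronal, 21.4 to 212 for 5 microglial, 179 to 3680 for 5 oligodendrocyte and 108 to 807 for 5 endothelial markers, and no marker was at 0 in all libraries of a group. Fewer cells of a type and less RNA per cell cannot be told apart in bulk RNA. The ipsilateral library of PTE− mouse 9_14 stood apart, with 10727 genes above 0 TPM against 15599 to 18534 in the other libraries, so ipsilateral results are given with and without it. Npas2 and Per2 were listed at 0 in it and Cry1 was at 58.2 TPM. TPM keep no sequencing depth, so the counting error behind a value is unknown. Mouse names begin with 8 or 9, a prefix whose meaning is not stated. Names beginning with 8 belonged to 2 of 5 sham, 4 of 10 PTE− and 1 of 4 PTE+ ipsilateral libraries and to 2 of 5, 4 of 9 and 2 of 4 contralateral ones.

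Dbp, the transcription factor that is a direct output of the loop, was the most abundant of the clock genes in astrocytes (TPM, which are scaled per transcript length). It reached 352 ± 157 TPM in the ipsilateral libraries without 9_14 and 390 ± 164 TPM in the contralateral libraries (SD, n = 18 each). Nr1d1, the nuclear receptor that represses Arntl, followed at 221 ± 79.4 and 233 ± 73.8 TPM, below Dbp in 17 of 18 libraries of either hemisphere. These 2 genes stood well above the rest, and Nr1d1 exceeded the next gene in 18 of 18 libraries of either side. Arntl had 34.1 ± 11.7 TPM ipsilaterally and 34.6 ± 11.7 TPM contralaterally, and Nr1d2 30.7 ± 13.5 and 35.2 ± 16.3 TPM. The order of this pair did not hold, since Arntl was above Nr1d2 in 10 of 18 ipsilateral libraries and Nr1d2 above Arntl in 8 of 18 contralateral ones. Cry1, a repressor of the ARNTL complex, and Per3 were likewise not separated (23.2 ± 3.06 and 21.6 ± 8.16 TPM ipsilaterally, with Cry1 above Per3 in 9 of 18 libraries). Npas2 had 10.7 ± 4.44 TPM, Per2 6.52 ± 3.34 TPM, Per1 4.24 ± 2.78 TPM and Clock 3.36 ± 1.38 TPM ipsilaterally, and the contralateral order of these 4 was the same. Clock had the lowest mean, but Per1 was above it in only 11 of 18 ipsilateral and 14 of 18 contralateral libraries, so the order of this pair is not firm.

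Cry1 was the steadiest of the 10 genes from mouse to mouse. Its coefficient of variation over libraries was 13.2% ipsilaterally without 9_14 and 18.1% contralaterally, against 34.2% to 65.5% and 31.6% to 48.3% for the other 9. Within the PTE− group, contralateral Dbp ran from 185 to 661 TPM (median 249) and Arntl from 16.3 to 57.1 TPM (median 33.7). In both genes this range was wider than the differences between contralateral group means. In sham, PTE− and PTE+ mice these means were 449, 371 and 360 TPM for Dbp and 29.6, 36.9 and 35.8 TPM for Arntl. The plot of TPM by group shows every library.

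**Figure D1:**
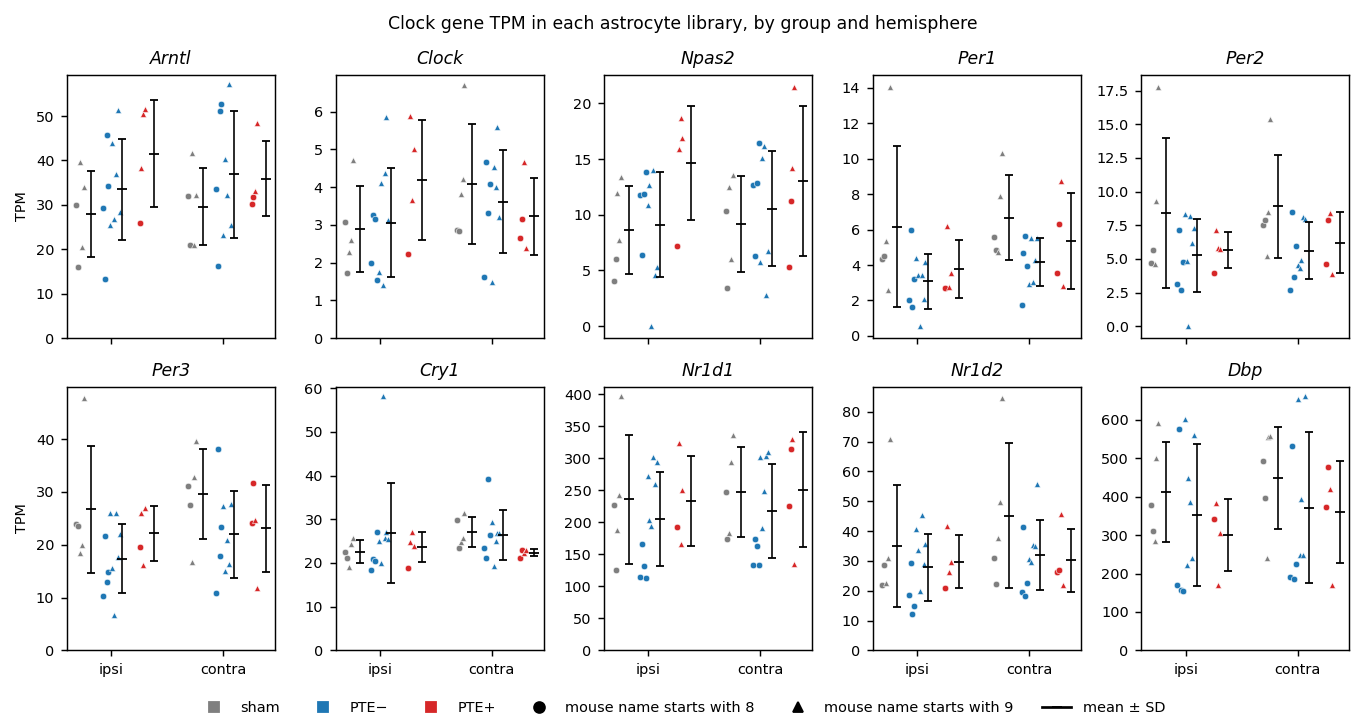
TPM of each clock gene (vertical axis, from 0, a separate scale per gene) in every ipsilateral and contralateral library, with sham in grey, PTE− in blue and PTE+ in red. Circles are mice whose name starts with 8, triangles those starting with 9, and black bars give the mean ± SD of a group. The groups overlap for every gene, the highest Per1, Per2 and Nr1d2 values of either hemisphere belong to sham mouse 9_11, and the isolated Cry1 value of 58.2 TPM is PTE− mouse 9_14.

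The first comparison asked whether injury, with or without epilepsy, left the clock genes of astrocytes altered. In the CCI-injured mice the 3 Per genes, the negative limb of the loop, had lower mean levels than in sham mice in both hemispheres, but only contralateral Per2 passed the test. A gene was called at an unadjusted p under 0.05 (limma on log2(TPM + 1)) and a fold of at least 1.2, and low genes, whose mean TPM did not exceed 5 in any compared group, were left out. By this rule 0 of the 9 clock genes tested were called ipsilaterally, where 1.62% of 10434 genes were called, and 1 of 9 contralaterally, where 4.05% of 10556 genes were called. Clock was under the TPM filter in both hemispheres. No gene at all had an adjusted p under 0.05 (Benjamini-Hochberg over all genes, limma) in either hemisphere, with 195 and 472 genes at an unadjusted p under 0.05. Without 9_14, 2 ipsilateral genes had an adjusted p under 0.05, 3.83% of 10424 genes were called and the count of clock genes called was 0 of 9.

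Per2 was the called gene. Contralateral Per2 had 5.21, 7.51, 7.89, 8.46 and 15.4 TPM in the 5 sham mice. It ranged from 2.67 to 8.45 TPM (median 4.93) in PTE− mice and was 3.89, 4.63, 7.87 and 8.42 TPM in PTE+ mice. Injured and sham mice overlapped, and 9 of 13 injured mice lay below the sham median. The log2 fold change was −0.53 (standard error 0.24, 95% interval −1.04 to −0.02, limma adjusted p = 0.978), and a two-sided exact permutation test over 8568 splits of the mice gave p = 0.0486. The call was lost without any 1 of 5 mice (sham 8_16, 9_10 and 9_11, PTE+ 8_10 and 9_18), and without 9_11, the highest library, the log2 fold change was −0.33. Contralateral PTE− mice were not left out singly. It was also lost with quantile normalization (−0.38) and with median centring (−0.43). Ipsilateral Per2 had a mean difference of −0.55 (standard error 0.41, exact permutation p = 0.229). It was −0.36 (standard error 0.27) without 9_14 and −0.26 without sham mouse 9_11. Unlike contralaterally, 8 of 14 injured mice lay above the sham median and 6 below it.

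Per1, a Per gene that also responds to acute signals, stood close to the threshold on both sides. Ipsilateral Per1 was 2.57, 4.36, 4.5, 5.34 and 14.1 TPM in sham mice, 0.55 to 5.95 TPM (median 3.3) in PTE− mice and 2.68, 2.75, 3.57 and 6.18 TPM in PTE+ mice. Contralateral Per1 was 4.71, 4.82, 5.59, 7.89 and 10.3 TPM in sham mice, 1.77 to 5.66 TPM (median 4.28) in PTE− mice and 2.81, 3.54, 6.32 and 8.72 TPM in PTE+ mice. In both hemispheres sham mouse 9_11 was the highest of all and the groups overlapped. The log2 fold change was −0.66 ipsilaterally (95% interval −1.35 to 0.03, exact permutation p = 0.0634) and −0.49 contralaterally (95% interval −1.01 to 0.02, exact permutation p = 0.0626). Below the sham median lay 12 of 14 injured mice ipsilaterally and 10 of 13 contralaterally. Without 9_14 the ipsilateral difference was −0.55 (exact permutation p = 0.0666). Without sham mouse 9_11 it was −0.34, and Per1 was then under the TPM filter.

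Per3 followed the other Per genes. Ipsilateral Per3 was 18.4, 19.9, 23.5, 23.9 and 47.9 TPM in sham mice, 6.77 to 26.1 TPM (median 16.6) in PTE− mice and 16.1, 19.5, 26 and 26.9 TPM in PTE+ mice. Contralateral Per3 was 16.7, 27.6, 31.2, 32.8 and 39.7 TPM in sham mice, 10.9 to 38.2 TPM (median 20.8) in PTE− mice and 11.9, 24.1, 24.7 and 31.7 TPM in PTE+ mice. The log2 fold changes were −0.49 (standard error 0.27) and −0.42 (standard error 0.24), neither called, and ipsilaterally −0.39 without 9_14 and −0.26 without sham mouse 9_11. Ipsilateral Per3 was called with quantile normalization (−0.48) and with median centring (−0.52), and ipsilateral Per1 with median centring (−0.68).

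Dbp and Nr1d2, which share the phase of the Per genes, were also lower on average in injured mice, with intervals that span no change. The log2 fold change of Dbp was −0.40 ipsilaterally (95% interval −1.06 to 0.27) and −0.37 contralaterally (−1.01 to 0.27), and that of contralateral Nr1d2 was −0.44 (−0.98 to 0.11). Ipsilateral Nr1d2 differed by −0.24, and Nr1d1 by only −0.13 ipsilaterally and −0.15 contralaterally. Without sham mouse 9_11 ipsilateral Dbp differed by −0.25 and contralateral Nr1d2 by −0.18. Ipsilateral Nr1d2 then differed by 0.05, and Nr1d1 by 0.08 ipsilaterally and −0.02 contralaterally. Arntl, which runs opposite to them over the day, was higher on average, by 0.33 ipsilaterally (−0.21 to 0.88) and 0.27 contralaterally (−0.22 to 0.76). The median log2 fold change of the clock genes tested was −0.24 ipsilaterally and −0.37 contralaterally, against −0.01 and −0.07 over all genes tested. These medians depended on 1 sham mouse, and without 9_11 they were 0.07 over 8 genes and −0.18 over 9 genes. Ipsilateral and contralateral libraries come from largely the same mice, so the 2 hemispheres are not independent repeats of the comparison. The summed TPM of oligodendrocyte markers also differed ipsilaterally, with medians of 2420 in sham (179 to 3680), 911 in PTE− (334 to 1770) and 929 in PTE+ libraries (751 to 1790). Its part in the clock gene differences was not tested.

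The second comparison asked whether clock genes differed between injured mice with and without epilepsy. By the same rule 0 of 8 clock genes tested were called ipsilaterally, where 0.573% of 10473 genes were called, and 0 of 9 contralaterally, where 2.79% of 10423 genes were called. Without 9_14 the ipsilateral count was 0 of 8, where 1.89% of 10440 genes were called. The smallest unadjusted p of a clock gene was 0.174 ipsilaterally and 0.209 contralaterally (limma). Here Clock and Per1 were under the TPM filter ipsilaterally and Clock contralaterally, and exact permutation tests of these gave p = 0.219, 0.425 and 0.727.

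Npas2, the partner of ARNTL that can stand in for CLOCK, had the largest ipsilateral difference. It was 7.2, 15.9, 16.9 and 18.7 TPM in PTE+ mice and 4.61 to 14 TPM (median 11.7) in PTE− mice other than 9_14, where it was listed at 0. Thus 3 of 4 PTE+ mice were above every PTE− mouse and the fourth, mouse 8_10 and the only one of them with prefix 8, was within their range. The log2 fold change was 0.84 (95% interval −0.41 to 2.09), and 0.50 (−0.15 to 1.15, exact permutation p = 0.165) without 9_14. Contralaterally Npas2 was 5.28, 11.2, 14.2 and 21.5 TPM in PTE+ mice and 2.83 to 16.4 TPM in PTE− mice, with a log2 fold change of 0.30 (−0.56 to 1.16), which turned to −0.25 with array weights. Cry1 differed by −0.11 ipsilaterally and by 0.02 without 9_14 (95% interval −0.28 to 0.31), and by −0.20 contralaterally (−0.53 to 0.12). Per3 differed by 0.40 ipsilaterally (−0.25 to 1.05) and 0.07 contralaterally (−0.53 to 0.68). The intervals of most genes reach beyond a 1.2-fold change on either side, and differences of that size were not resolved with 4 PTE+ libraries.

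A test across sham, PTE− and PTE+ mice together gave the same picture. No clock gene had an unadjusted p under 0.05 (limma) among 9 tested in either hemisphere, where 1.11% of 10614 ipsilateral and 2.45% of 10672 contralateral genes did. The smallest p was 0.107 for ipsilateral Per3 and 0.118 for contralateral Per2, and with 9_14 left out the ipsilateral count was 0 of 9, where 2.88% of 10568 genes passed. All of these comparisons share libraries, so their values are set side by side and are not separate evidence.

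**Figure D2:**
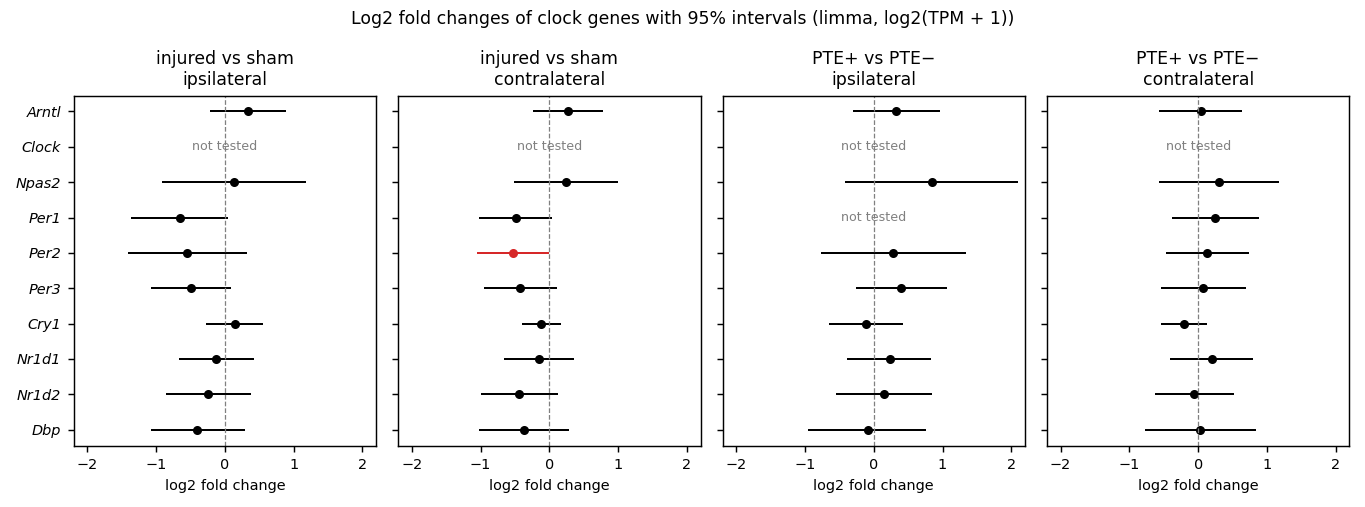
Log2 fold changes of the clock genes (horizontal axis, points) with 95% intervals (bars) from limma on log2(TPM + 1), for injured against sham and PTE+ against PTE− mice in each hemisphere. The called gene, contralateral Per2 at −0.53, is in red, all other intervals cross 0, and genes under the TPM filter are written as not tested.

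Of 21 other genes of the clock pathway, 19 were tested in each comparison. They include Cry2, the ROR receptors that oppose NR1D1, the D-box factors Tef and Hlf, the repressor Bhlhe40 and the casein kinases that mark PER proteins for decay. For injured against sham mice 0 of 19 were called ipsilaterally, where 1.62% of all genes tested were called. Contralaterally, where 4.05% of all genes were called, 1 of 19 was, the D-box factor Tef (log2 fold change −0.35, standard error 0.15, limma adjusted p = 0.978). All 19 had a negative contralateral log2 fold change, with a median of −0.11 against −0.07 over all genes tested, and without sham mouse 9_11 12 of 19 did and 0 were called. For PTE+ against PTE− mice 0 of 19 were called in either hemisphere, where 0.573% of ipsilateral and 2.79% of contralateral genes were called. Immediate early genes and glucocorticoid response genes are given beside these results. Of 7 immediate early genes tested, 4 were called as lower in ipsilateral PTE+ than PTE− mice, where 0.573% of all genes were called. Their limma adjusted p was 0.977, and the paper had already reported early response genes as lower there from the same libraries. In ipsilateral injured against sham mice, where 1.62% of all genes were called, 1 was called as lower. Contralaterally 0 were called in either comparison. Of 4 glucocorticoid response genes tested, 1 was called as lower in ipsilateral injured than sham mice and 0 in the other 3 of these comparisons. Without 9_14, 2 were called for ipsilateral injury, 1 as higher and 1 as lower, where 3.83% of all genes were called. The summed TPM of 8 immediate early genes was 313 to 1290 in ipsilateral sham, 255 to 1280 in PTE− and 206 to 349 in PTE+ libraries, and 276 to 1620, 276 to 2340 and 219 to 659 contralaterally. The sum of 6 glucocorticoid response genes was 456 to 665 TPM (median 518) in ipsilateral sham libraries and 327 to 658 TPM in the injured ones (median 454 in PTE− and 416 in PTE+), and 419 to 699, 364 to 759 and 383 to 536 TPM contralaterally. Their part in the clock gene values was not tested.

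The next question was whether clock gene levels went together between the hemispheres of a mouse. They did for most clock genes, but clock phase was not separated from other things the hemispheres share. Over the 17 mice with both hemispheres, the deviations of log2(TPM + 1) from the group means were correlated between ipsilateral and contralateral libraries. Among 9 clock genes with a mean above 5 TPM in both tables, 7 had a Pearson r of at least 0.5, and the median r was 0.78. Such sharing was common among astrocyte genes, since 47.8% of 10412 genes had an r of at least 0.5 and the median of all was 0.49. After adjustment over all 10412 genes, 20.5% of them had a positive r at an adjusted p under 0.05 (permutation of mice within groups).

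Dbp had the highest correlation between the hemispheres of a mouse among the 10. Its r was 0.96 and Spearman's rho 0.94 (both permutation p = 1e-05, the smallest that 100000 permutations can give, adjusted p = 0.00325 over all genes), which put it above 99.8% of genes. PTE− mouse 9_12 had 602 TPM ipsilaterally and 654 TPM contralaterally, and PTE− mouse 8_13 had 156 and 185 TPM. PTE+ mouse 9_18 had 170 and 171 TPM, and sham mouse 9_11 had 592 and 557 TPM. PTE− mice spanned nearly the whole range of Dbp on both sides, and each of the 4 mice named had similar levels in both hemispheres. The median absolute difference between hemispheres was 0.15 on the log2 scale, against a standard deviation between mice of 0.72 ipsilaterally and 0.68 contralaterally. With the 2 most extreme mice left out r was 0.95.

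Nr1d1 and Arntl, the repressor and its target, came next. Nr1d1 had an r of 0.92 (permutation p = 1e-05) and a rho of 0.88 (p = 3e-05 by permutation), with an adjusted p of 0.00325, above 99.5% of genes, and r was 0.91 without the 2 most extreme mice. Arntl had an r of 0.91 (permutation p = 3e-05) and a rho of 0.89 (p = 4e-05 by permutation), with an adjusted p of 0.00372, above 99.3% of genes, and r was 0.86 without the 2 most extreme mice. Arntl was lowest in PTE− mouse 8_11 on both sides (13.2 and 16.3 TPM), a mouse with high Dbp on both sides (577 and 531 TPM). Among mice with both hemispheres it was highest in PTE− mouse 9_16 on both sides (51.4 and 57.1 TPM).

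Npas2 and Nr1d2 each had an r of 0.78 (permutation p = 0.00111 and 0.00094, rho 0.84 and 0.79, permutation p = 0.00011 and 0.00053). For Per2 r was 0.73 (permutation p = 0.00239, rho 0.66, permutation p = 0.00764) and for Per3 0.71 (permutation p = 0.00349, rho 0.73, permutation p = 0.00303). Adjusted over all genes, the p of these 4 lay between 0.017 and 0.0306. With the 2 most extreme mice left out r was 0.86 for Npas2, 0.66 for Nr1d2, 0.62 for Per2 and 0.63 for Per3. The other members had a lower r or were less abundant. Clock, under the TPM filter, had an r of 0.73 (permutation p = 0.00295, rho 0.69, permutation p = 0.00535). Per1 had an r of 0.43 (permutation p = 0.104) and a rho of 0.30 (p = 0.273 by permutation). Cry1 had an r of 0.32 (permutation p = 0.253) and a rho of 0.55 (p = 0.0318 by permutation). Cry1 also differed least between mice, with a standard deviation of 0.20 ipsilaterally and 0.23 contralaterally, and Per1 was near the filter at 4.24 and 5.12 TPM. The median absolute difference of Cry1 between hemispheres was 0.15, equal to that of Dbp. The SD of the difference was larger for Cry1, at 0.27 against 0.19 for Dbp. These 10 relations are 1 family.

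**Figure D3:**
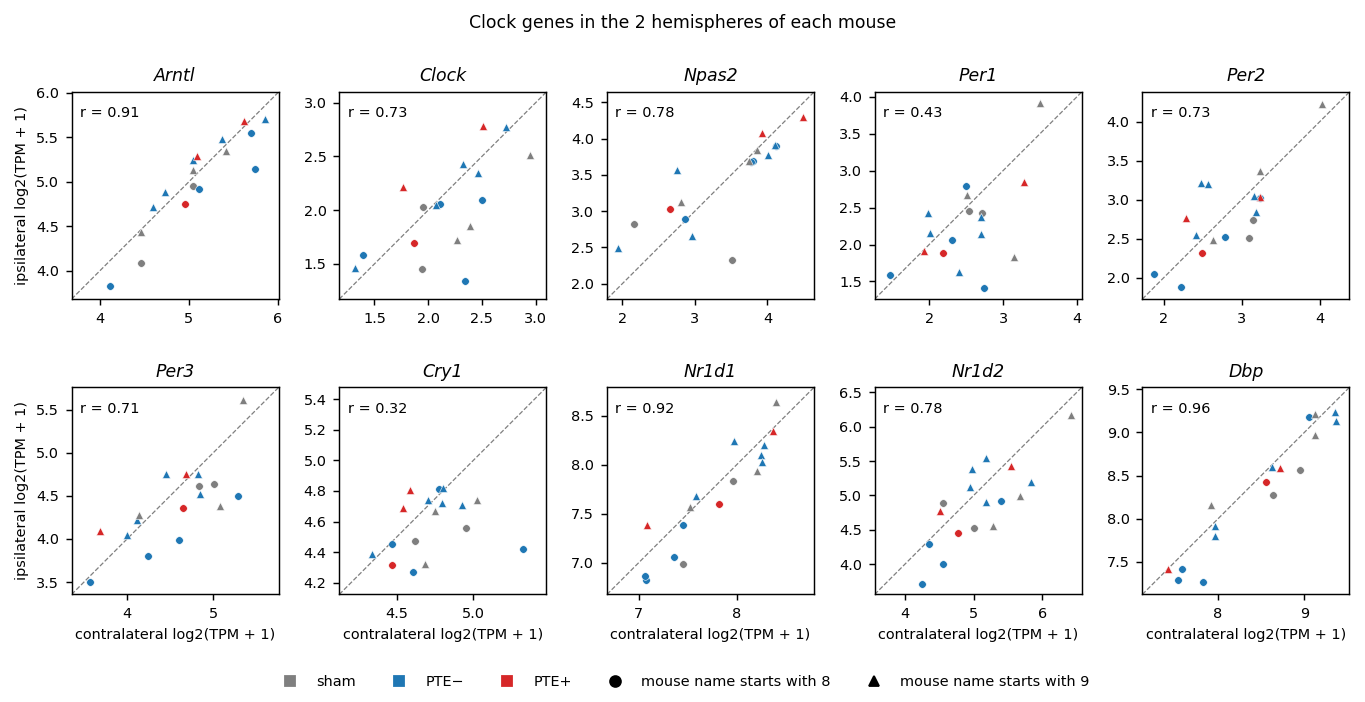
Ipsilateral (vertical) against contralateral (horizontal) log2(TPM + 1) of each clock gene, 1 point per mouse for 17 mice, with colour for the group and shape for the mouse name prefix. The dashed line marks equal levels and r is computed on deviations from group means. Dbp, Nr1d1 and Arntl lie along the line with r of 0.96, 0.92 and 0.91, while Per1 and Cry1 scatter with r of 0.43 and 0.32.

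The likeness held within each prefix of the mouse name. In the 7 mice with prefix 8, r was 0.96 for Dbp, 0.92 for Nr1d1 and 0.96 for Arntl, and in the 10 mice with prefix 9 it was 0.98, 0.90 and 0.97. With the prefix removed along with the group means it was 0.96, 0.90 and 0.96 over all 17 mice, and in the 12 injured mice alone 0.98, 0.93 and 0.89. Clock fell to 0.19 in the mice with prefix 8 and reached 0.93 in those with prefix 9. Of the other clock pathway genes 17 of 19 had an r of at least 0.5, with a median of 0.71. The largest were Ciart (0.96), a repressor under clock control, Bhlhe41 (0.92) and Rorb (0.90). Cry2 and Bhlhe40 each had 0.75, Csnk1e 0.79 and Csnk1d 0.73. Above the threshold were also Rora, Tef, Hlf, Btrc, Usp2, Nono, Wdr5, Prkaa1 and Gsk3b (0.56 to 0.72).

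**Figure D4:**
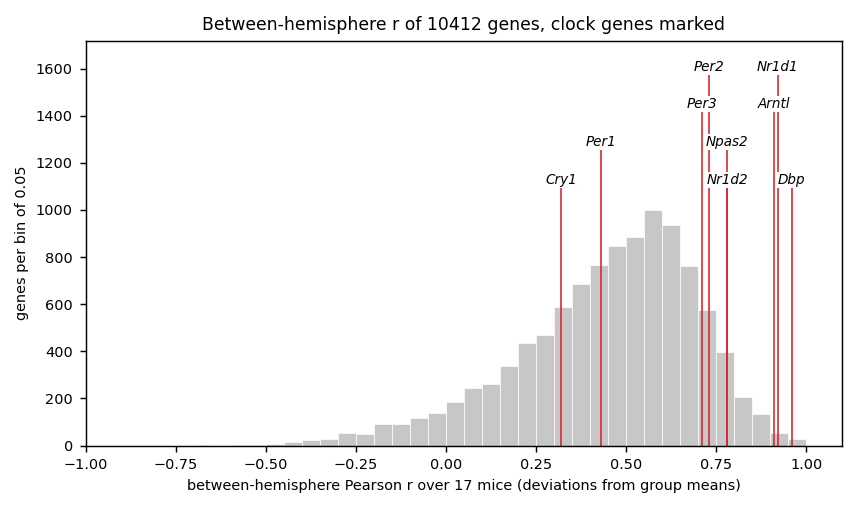
Number of genes (vertical axis) by between-hemisphere Pearson r over 17 mice (horizontal axis, bins of 0.05) for 10412 genes in grey, with the 9 clock genes above the TPM filter as red lines. The median of all genes is 0.49, and Dbp, Nr1d1 and Arntl stand at the right edge at 0.96, 0.92 and 0.91.

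Ipsilateral minus contralateral differences within a mouse are free of what its hemispheres share, so they were compared between groups with the mouse as the block. None of 9 clock genes was called for injured against sham mice, where 6.5% of 10695 genes were called, and none for PTE+ against PTE− mice, where 3.09% of 10683 genes were called (smallest unadjusted p 0.303 and 0.262, limma). The intervals were narrowest for the genes most shared. The group difference of the within-mouse log2 difference was −0.03 for Dbp (95% interval −0.26 to 0.20), 0.04 for Nr1d1 (−0.20 to 0.29) and 0.04 for Arntl (−0.24 to 0.31) between injured and sham mice. Between PTE+ and PTE− mice it was 0.07 for Dbp (−0.19 to 0.34), 0.12 for Nr1d1 (−0.18 to 0.41) and 0.11 for Arntl (−0.27 to 0.48). Over all 17 mice, Dbp was on average 0.13 lower on the injured or operated side (SD 0.19), and it was higher there in 3 of 17 mice, while the median over all genes was −0.03. The tables of the hemispheres are separate files, so this level difference is given without a test.

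Within a hemisphere the Per genes, Nr1d1, Nr1d2 and Dbp were high or low together from mouse to mouse. In the contralateral libraries (n = 18, deviations from group means, given as a description) 14 of 15 pairs among the Per genes, Nr1d1, Nr1d2 and Dbp had an r of at least 0.5, with a median of 0.63. Ipsilaterally 11 of 15 pairs did, and 15 of 15 without 9_14 (median 0.77). Per3 and Dbp had an r of 0.86 contralaterally and 0.78 ipsilaterally without 9_14, and Per2 and Per3 0.75 and 0.84. Arntl ran against Dbp, with an r of −0.76 contralaterally and −0.50 ipsilaterally without 9_14. It did not run against the whole set to this degree. With Nr1d1 it had −0.26 contralaterally and 0.20 ipsilaterally without 9_14. With the Per genes and Nr1d2 it had −0.63 (Per3) to −0.04 (Per1) contralaterally, and −0.16 (Per1) to −0.05 (Nr1d2) ipsilaterally without 9_14. Arntl, Clock, Npas2 and Cry1 did not form a second tight set, since 0 of their 6 pairs had an r of at least 0.5 in either hemisphere, and the largest were 0.42 contralaterally and 0.47 ipsilaterally. Of the 24 pairs between the sets, 2 contralateral and 1 ipsilateral had an r below −0.5, and 3 and 6 had an r of at least 0.5 (4 ipsilaterally without 9_14). The 3 contralateral ones were those of Clock with Per1 (0.73), Per2 (0.69) and Nr1d2 (0.60). The 4 ipsilateral ones without 9_14 were Clock with Nr1d1 (0.67) and Nr1d2 (0.54), and Cry1 with Per2 (0.67) and Per3 (0.50). Contralaterally Cry1 had 0.05 with Per2 and 0.12 with Per3. None of Clock's pairs with the Per, Nr1d and Dbp genes had an r below −0.5. Libraries of 1 table share their normalization, and a weak correlation of low TPM is not read here.

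The position of each clock gene among all genes ranked by likeness to Dbp gives the scale of this pattern. By the mean Spearman rho with Dbp over both hemispheres, Per3 ranked 16, Nr1d1 19, Nr1d2 25 and Per2 70 of 10412 genes, with Dbp itself first. Their mean rho was 0.75, 0.73, 0.71 and 0.62. Per1 ranked 661 (0.45) and Cry1 3698 (0.21), and Npas2 (9734, −0.41) and Arntl (10342, −0.61) lay at the opposite end. The genes most like Dbp that are not among the 10 were Pim3 (mean rho 0.88), a serine/threonine kinase, Usp2 (0.86), a deubiquitinase listed among the clock pathway genes, Herpud1 (0.86), an endoplasmic reticulum stress protein, Ciart (0.83) and Cirbp (0.81), an RNA-binding protein induced by cold. The most opposite were Hspa8 and Tuba4a (−0.79 each), Fam131a (−0.78), Fam173b (−0.75) and Nell2 (−0.74).

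A contrast between the sets was formed for each library, as the mean z-score of Per1, Per2, Per3, Nr1d1, Nr1d2 and Dbp minus that of Arntl, Clock, Npas2 and Cry1. Because Clock, and ipsilaterally without 9_14 also Cry1, was positively correlated with genes of the first set, the contrast is not a measure of phase. Its correlation between the hemispheres of the 17 mice was 0.91 (rho 0.87), and it had the same sign on both sides in 15 of 17 mice. It was 0.99 in the 7 mice with prefix 8 and 0.84 in the 10 with prefix 9. The clock genes alone did not identify a mouse better than all genes did. By the 10 clock genes, the library nearest to an ipsilateral library was the contralateral library of the same mouse in 8 of 17 mice, against 10 of 17 by all 10412 genes, and it was among the nearest 3 in 13 and 14 mice. The heat map of mice ordered by Dbp shows the shared pattern and its exceptions. Sham mouse 9_11 was high in the Per genes, Nr1d1, Nr1d2 and Dbp on both sides, and PTE− mouse 9_16 combined the highest contralateral Arntl (57.1 TPM) with the lowest contralateral Npas2 (2.83 TPM).

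**Figure D5:**
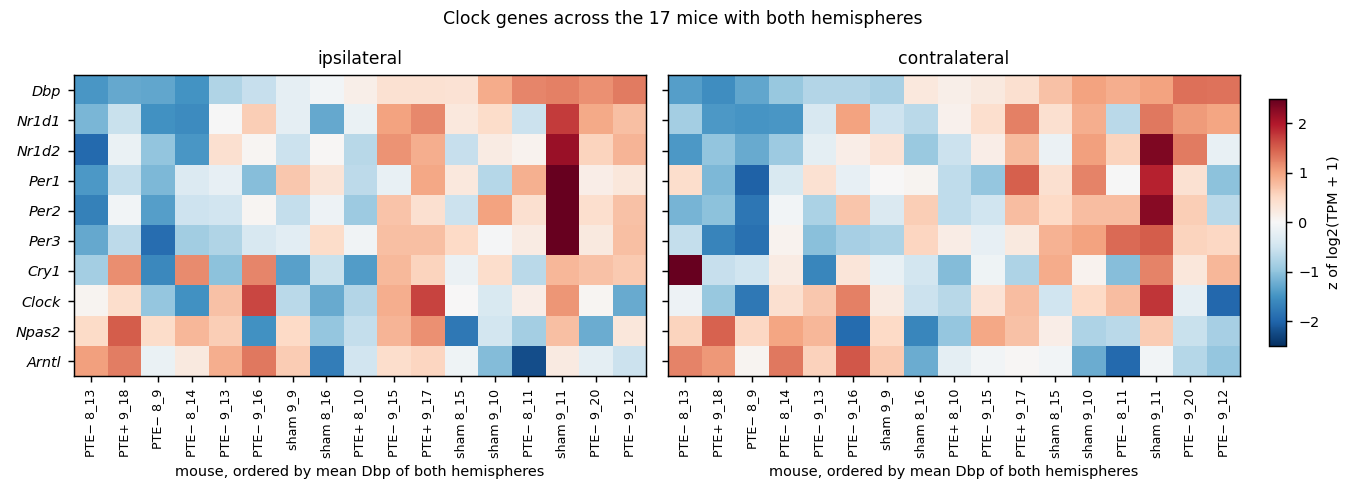
Clock genes (rows) in the 17 mice with both hemispheres (columns, ordered by mean Dbp), with colour for the z-score of log2(TPM + 1) over mice, ipsilateral on the left and contralateral on the right. From left to right Dbp, Nr1d1, Nr1d2 and the Per genes pass from blue to red and Arntl from red to blue in both panels, and mice of the 3 groups are mixed along the order.

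The mouse name prefix was related to a large share of all genes, and to the 9 clock genes tested at a similar share. With the groups in the model, Nr1d1 and Nr1d2 were called as higher in mice with prefix 9 in both hemispheres, 2 of 9 clock genes each, where 23.7% of 10614 ipsilateral and 18.7% of 10672 contralateral genes were called. These shares are near those of all genes. Nr1d1 was 0.75 higher ipsilaterally (standard error 0.17, limma adjusted p = 0.0223) and 0.43 higher contralaterally (standard error 0.20, limma adjusted p = 0.212) on the log2 scale. Ipsilateral Nr1d1 was 112 to 227 TPM in the mice with prefix 8 and 166 to 398 TPM in those with prefix 9, so the mice overlapped in part. Nr1d2 was 0.72 higher (standard error 0.22, limma adjusted p = 0.0544) and 0.62 higher (standard error 0.20, limma adjusted p = 0.109). Without 9_14, ipsilateral Per2 (0.63, limma adjusted p = 0.0342) and Arntl (0.46, limma adjusted p = 0.111) were called as well, 4 of 9 clock genes where 38.7% of 10568 genes were called. Contralaterally these 2 differed by 0.15 and 0.12, values that turned negative with quantile normalization and median centring. With median centring contralateral Nr1d1 (0.27) was no longer called. Over all genes the median difference between prefixes was 0.11 ipsilaterally and 0.12 contralaterally, and 0.00 and −0.01 with quantile normalization. Of the 19 other clock pathway genes tested, 7 ipsilaterally and 8 contralaterally were called as higher with prefix 9. Among them were Cry2, Tef, Csnk1d and Gsk3b in both hemispheres. Without 9_14, 11 of 19 were called ipsilaterally. These shares were larger than the 23.7%, 18.7% and 38.7% of all genes called in the same fits, a difference that was not tested. With the prefix as a covariate, 0 of 9 ipsilateral and 1 of 9 contralateral clock genes were called for injured against sham mice, and 0 of 8 and 0 of 9 for PTE+ against PTE− mice.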

How the data were processed

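The submitters' processing notes name Trim Galore 0.6.4, Bowtie2 2.4.1, RSEM 1.2.28 and DESeq2 1.36.0 with mm10. The authors deposited TPM per gene, estimated from SMART-Seq v4 libraries, in 1 table per hemisphere. TPM keep no depth, so a count test was not possible and no counting interval is given. Of 21975 gene identifiers 21856 had a symbol. Groups came from the labels.

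TPM were analysed as log2(TPM + 1), a scale that understates changes of low genes. Genes whose mean exceeded 5 TPM in any compared group were fitted with limma 3.58.1 (R 4.3.3, trended variance) and adjusted by Benjamini-Hochberg over all of them. A call was an unadjusted p under 0.05 with a fold of at least 1.2. Single genes were also tested by two-sided exact permutation of mice. Correlations between hemispheres used 100000 permutations within groups, two-sided. Hemispheres were paired by the mouse name in the labels, which marks the same animal. Alternatives were a pseudocount of 0.1, no filter or a filter of 1 TPM, quantile normalization, median centring, array weights, the prefix as a covariate and leaving out single mice. The fits were tested on simulated data. Promoters and gene positions came from RefSeq and GENCODE tables on GRCm38.

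Genes named singly were the 10 clock genes, other clock pathway genes that were called or had a between-hemisphere r of at least 0.5, and the 5 genes most and least like Dbp. A gene of the clock pathway list is not reported singly here. The members and lists were chosen with earlier results of these data known. Whether mice came from separate cages or litters is not stated, and p-values measure the spread between these mice.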

Additional observations from a re-analysis of the deposited data

Results flagged for a closer look

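In 60 groups of 4 to 10 libraries, 6 clock gene values lay far from the rest of their group by Dixon's criterion, which chance meets in about 1 in 20 groups. The criterion was not met by any contralateral group. Of the 6 values, 3 belong to the ipsilateral library of PTE− mouse 9_14, the library with the fewest genes above 0 TPM. Npas2 was listed at 0 in it (the nearest PTE− library had 4.61 TPM), Per2 was listed at 0 (nearest 2.68 TPM) and Cry1 was 58.2 TPM (nearest 27.2 TPM). In sham mouse 9_11, ipsilateral Per3 was 47.9 TPM (nearest 23.9 TPM) and ipsilateral Nr1d2 was 70.9 TPM (nearest 30.8 TPM), and the contralateral library of this mouse was also the highest sham library for both genes (39.7 and 84.8 TPM). Ipsilateral Arntl was 13.2 TPM in PTE− mouse 8_11 (nearest 25.4 TPM), and contralateral Arntl of this mouse was 16.3 TPM, the lowest of all contralateral libraries.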

How the results depend on the processing

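The numbers of clock genes called moved as follows. For injured against sham mice 1 was called ipsilaterally with quantile normalization and 2 with median centring (0 in the report), and contralaterally 0, 0 and 3 with quantile normalization, median centring and array weights (1 in the report). With array weights 1 was called for ipsilateral PTE+ against PTE− mice and 1 across the 3 ipsilateral groups. For the prefix, 6 were called ipsilaterally with array weights and 4 without 9_14, and 1 contralaterally with median centring or with no filter. Over all genes these fits called 2.14% and 1.7% (ipsilateral injury), 3.36%, 3.88% and 5.76% (contralateral injury), 4.21% (PTE+ against PTE−), 7.51% (3 groups), and 42.0% and 38.7% (ipsilateral prefix), and 16.9% for the contralateral prefix with median centring. Leaving out single PTE+ or sham mice gave 0 to 1 and 0 to 3 calls for injury, 2 to 3 and 1 to 2 for the prefix (ipsilateral and contralateral each), 7 to 8 genes with a between-hemisphere r of at least 0.5, and 0 to 0 calls elsewhere. Contralateral Per2 lost its call without any 1 of PTE+ mice 8_10 and 9_18 and sham mice 8_16, 9_10 and 9_11.

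Directions turned only for differences that were not called. PTE+ against PTE−, ipsilateral Cry1 became 0.06 with array weights and 0.02 without 9_14, contralateral Npas2 −0.25 with array weights, and contralateral Per3 ran from −0.10 to 0.35 without single mice. For the contralateral prefix, Arntl became −0.02 with quantile normalization and −0.04 with median centring, and Per2 −0.07 and −0.01. For within-mouse differences of injured against sham mice, Arntl became −0.07, −0.08 and −0.02 with quantile normalization, median centring and array weights, and Nr1d1 −0.07 and −0.03 with the last 2. Without single mice Arntl ran from −0.03 to 0.08, Nr1d1 from −0.04 to 0.13 and Dbp from −0.10 to 0.06, and Nr1d1 from −0.02 to 0.23 for PTE+ against PTE−. With no replicate block for the pairing of hemispheres, 0 clock genes were called in either within-mouse comparison. The differences, 0.04 and 0.11 for Arntl, are the same with and without the block by construction, so only their error could change.

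Over 80 log2 fold changes of clock genes and 1081 alternative values, 971 left direction and call as they were, 13 lost a call, 22 gained one and 75 changed direction. Of the 80, only contralateral Per2 for injury and Nr1d1 and Nr1d2 for the prefix on both sides were called. The 971 are therefore mostly differences that stayed uncalled, and all 13 lost calls come from these few called ones. Sequencing depth is unknown and 4 PTE+ libraries a side limit the precision.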
